A study of Mus musculus with 6 samples.

Results

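Interferon-stimulated genes are transcripts that interferons are known to induce. The set described here held 39 mouse genes, which were picked by gene symbol, and all 39 were found among the 20327 gene symbols that were counted. The libraries were made from stromal cells of the inflamed colon. C57BL/6 mice aged 9 to 15 weeks carried the *Il11-Egfp* transgene, drank 1.5% dextran sulfate sodium (DSS), which injures the colonic epithelium, for 5 days and regular water afterwards, and the colon was taken on day 7. Living cells without surface Ter119, CD45, CD31 and EpCAM were sorted into EGFP+ cells, here IL-11+, and EGFP- cells, here IL-11- (n = 3 libraries per group). Strain, transgene, treatment and day were thus the same in both groups, and no library from untreated mice was analysed here. The transgene is a bacterial artificial chromosome with *Egfp* placed in *Il11* and came from 1 mouse line, so that the groups are defined by the signal of that transgene.

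Interferons are secreted proteins that bind receptors on the cell surface and activate JAK kinases, which phosphorylate STAT transcription factors. Type I interferons lead to a complex containing STAT2 and IRF9 that binds the interferon-stimulated response element (ISRE) in promoters, whereas interferon-γ acts through the gamma-activated site (GAS). The induced genes encode antiviral proteins, sensors of foreign RNA, GTPases that act on intracellular pathogens, and factors that reinforce the response, and stromal cells of the gut wall carry interferon receptors as other nucleated cells do.

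The comparison asked which of the 39 genes differed between IL-11+ and IL-11- cells of the same tissue. Counts were tags from the 5′ side of transcripts, and the libraries held 1022851 to 1169817 tags. A count of 3 tags, taken as the floor, corresponds to 2.46 to 3.18 normalized CPM (tag counts scaled to a common library total with TMM factors). This limit is one of counting alone. *Il11*, the gene on which the sort rested, was counted 28, 51 and 89 times in replicates 1, 2 and 3 of the IL-11- group and 1357, 732 and 2658 times in those of the IL-11+ group. Every IL-11+ library was above every IL-11- library, as the labels state, with a log2 fold change of 4.98 (SE 0.39, Benjamini-Hochberg (BH) adjusted p = 1.01e-07, edgeR's quasi-likelihood test). Below, the counts of a gene are given in the order of replicates 1, 2 and 3, and a fold change is that of IL-11+ relative to IL-11- cells.

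Most of the 39 genes had low counts, and 30 of them reached 10 tags in at least 3 of the 6 libraries and were tested. A gene was called when its BH-adjusted p over all 9334 tested genes was under 0.05 and its fold change was over 2. By this rule 6 members were lower in IL-11+ cells (*Ifit2*, *Mx2*, *Gbp7*, *Igtp*, *Irgm1* and *Rtp4*), where 6.37% of all tested genes were lower, and 1 member was higher (*Ifitm1*), where 3.44% of all tested genes were higher. By the adjusted p alone, 10 members were lower against 8.7% of all tested genes, and 1 was higher against 6.84%. At an unadjusted p under 0.05, 17 members were lower against 14.5% of all tested genes, and 3 were higher against 12.2%. When the replicate number was added as a block, the adjusted p alone gave 14 lower members against 11.2% of all tested genes and 3 higher members against 9.33%. The libraries of both groups did not overlap for 11 lower members, where this held for 16.7% of all tested genes, and for 2 higher members, where it held for 14.5%. Over the 30 tested members the median log2 fold change was -0.75, against -0.01 over all tested genes, and 26 of the 30 were negative against 51.2% of all tested genes. These figures leave out 9 members with fewer tags, and *Mx2* and *Rtp4* passed the filter only through the IL-11- libraries, so that they had to differ. Because each library holds RNA from many sorted cells, fewer cells of a type and less RNA per cell cannot be told apart. The number of lower members also depended on single libraries. It was 1 (*Irgm1*) without IL-11- replicate 3 and 2 (*Irgm1* and *Mx2*) without IL-11+ replicate 1, and the median was -0.55 without IL-11- replicate 3.

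**Figure D1:**
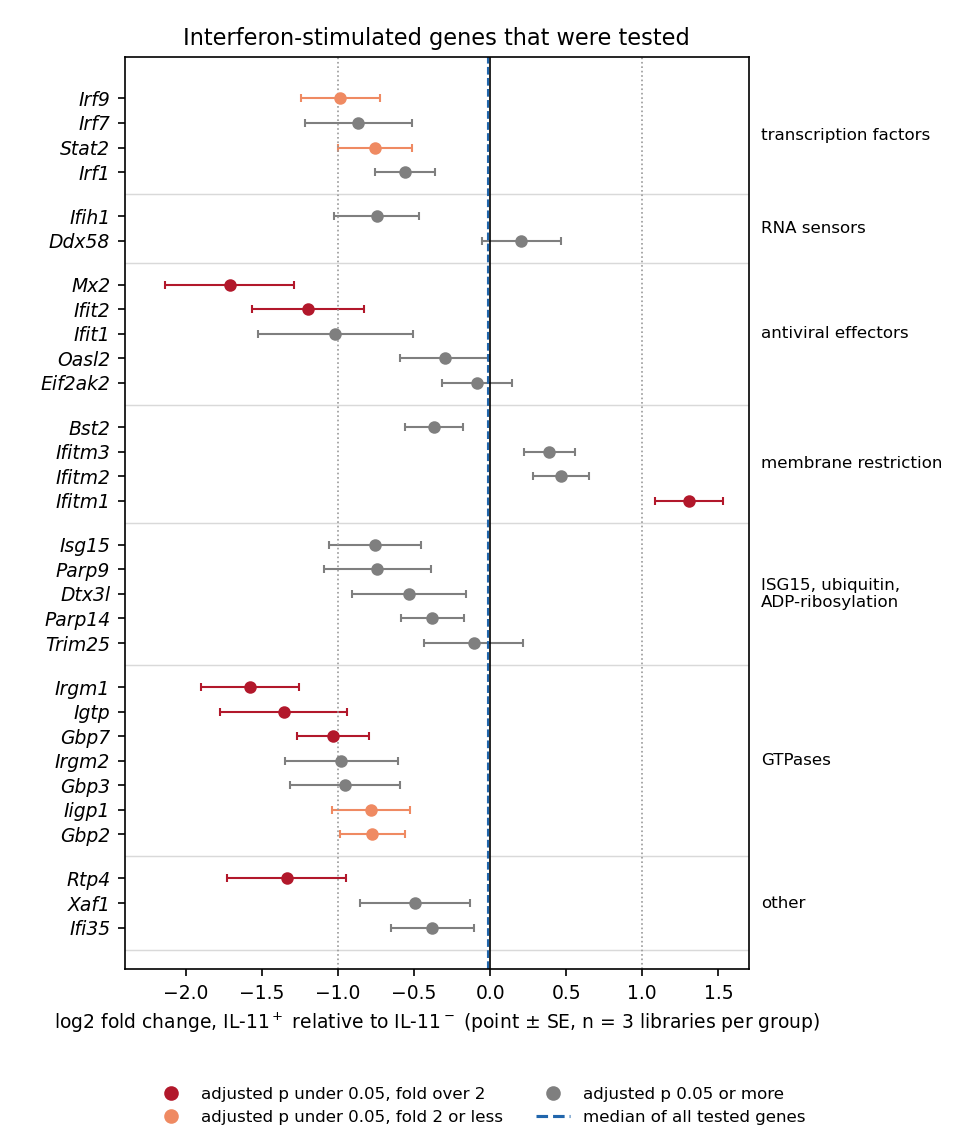
Log2 fold change of the 30 tested interferon-stimulated genes in IL-11+ relative to IL-11- cells (horizontal axis; point and SE, n = 3 libraries per group), grouped by role, with dotted lines at a fold change of 2 and a dashed line at the median of all tested genes (-0.01). All 7 GTPase genes lie left of 0, and *Ifitm1*, *Ifitm2*, *Ifitm3* and *Ddx58* are the 4 genes to the right of it.

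Among the roles, genes for GTPases that interferon-γ induces formed the group with the most calls in the main fit. All 7 of these genes were tested, and their median log2 fold change was -0.98. In edgeR's test 3 were called lower, where 6.37% of all tested genes were, and 2 in DESeq2, where *Igtp* was not called. Without IL-11- replicate 3 or IL-11+ replicate 1, *Irgm1* was the only 1 of them called in edgeR's test. The 7 genes encode guanylate-binding proteins (GBP) and immunity-related GTPases (IRG), which attack the vacuoles in which some pathogens live. With no filter on low counts, *Irgm1* and *Igtp* were called, against *Ifit2*, *Ifit3* and *Mx2* of the antiviral effectors. Related genes outside the 39 (*Gbp5*, *Gbp6*, *Gbp9*, *Ifi47*, *Tgtp1*, *Tgtp2* and *Gvin1*), chosen after their values were seen, were not called in the main fit. Their log2 fold changes ran from -1.20 (*Gvin1*) to -0.12 (*Gbp5*), and with the replicate block *Gvin1* and *Tgtp2* were called. *Irgm1*, which regulates other IRG proteins and autophagy, had 58, 75 and 52 tags in the IL-11- and 14, 10 and 32 in the IL-11+ libraries. The highest IL-11+ library, replicate 3, was still below the lowest IL-11- library. *Irgm1* had a log2 fold change of -1.58 (SE 0.32, BH-adjusted p = 0.00196, edgeR quasi-likelihood), and the gene stayed called when any 1 of the 6 libraries was left out (-2.15 to -1.28). *Igtp*, which encodes IRGM3, had 22, 24 and 44 tags in the IL-11- and 3, 18 and 10 in the IL-11+ libraries. Its groups were also apart, but IL-11+ replicate 2 was close to the lower IL-11- libraries, and the log2 fold change of -1.36 (SE 0.42) had a BH-adjusted p of 0.0336 (edgeR quasi-likelihood). This p rose to 0.0638, 0.16, 0.139 and 0.0797 when IL-11- replicate 2 or 3 or IL-11+ replicate 1 or 3 was left out.

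*Gbp7* had 47, 57 and 78 tags in the IL-11- and 23, 26 and 30 in the IL-11+ libraries, which did not overlap. The log2 fold change was -1.03 (SE 0.24, BH-adjusted p = 0.00488, edgeR quasi-likelihood), just past a fold change of 2, and it was -0.91 without IL-11- replicate 3, -0.97 without IL-11+ replicate 1 and -0.99 with no filter on low counts. *Gbp2* passed the adjusted p but not the fold change. It had 110, 109 and 139 tags in the IL-11- and 38, 70 and 80 in the IL-11+ libraries, which did not overlap. Its log2 fold change was -0.77 (SE 0.21, BH-adjusted p = 0.0165, edgeR quasi-likelihood), and the p was 0.0898 without IL-11+ replicate 1, the lowest library (0.000998 to 0.0901 over the alternatives). *Iigp1*, an IRG gene with more tags than the other 6 genes of the group, had 110, 130 and 175 tags in the IL-11- and 36, 67 and 114 in the IL-11+ libraries. IL-11+ replicate 3 lay within the IL-11- range after scaling. Its log2 fold change was -0.78 (SE 0.26, BH-adjusted p = 0.0471, edgeR quasi-likelihood), which passed the adjusted p only, and the p was 0.12 to 0.204 without IL-11- replicate 2 or 3 or IL-11+ replicate 1 or 2. Without IL-11+ replicate 3 the log2 fold change was -1.21, and without IL-11+ replicate 1 it was -0.48.

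*Gbp3* (18, 24 and 48 tags in IL-11-, 9, 14 and 18 tags in IL-11+ libraries) and *Irgm2* (29, 19 and 59 tags against 13, 11 and 24 tags) had log2 fold changes of -0.95 (SE 0.36) and -0.98 (SE 0.37). Neither passed in the fit by group alone (BH-adjusted p = 0.085 and 0.0887, edgeR quasi-likelihood), and both passed the adjusted p with the replicate block (0.0321 and 0.0173; the alternatives gave 0.0321 to 0.423 and 0.0173 to 0.461). In both genes IL-11- replicate 3 was the highest library. Without IL-11- replicate 3 their log2 fold changes were -0.55 and -0.52. *Gbp3* was called without IL-11- replicate 1 (-1.20), and *Irgm2* without IL-11- replicate 2 (-1.26) or IL-11+ replicate 3 (-1.34).

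The GTPase genes lie in clusters. *Gbp7*, *Gbp3* and *Gbp2* lie close together on chromosome 3 (142530342 to 142638008 in GRCm38), and *Igtp* (58199556 to 58207591) and *Irgm2* (58199618 to 58222782) overlap on the plus strand of chromosome 11, with *Irgm1* on the minus strand of the same chromosome (48861968 to 48871683). Of the 50-nt windows in the first 300 nt of their annotated transcripts, 41.3% of those of *Igtp* also occur in *Irgm2* and 28.2% of those of *Irgm2* in *Igtp*, so that counts of this pair are less certain. No such window was shared by *Gbp2*, *Gbp3*, *Gbp7* or *Irgm1* with another annotated gene. Here and below, these windows are from GENCODE transcripts, whereas the tags were mapped to RefSeq RNA, in which shared windows were not counted.

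The transcription factor genes of the response were all lower in mean, and none reached a call with the fold change. All 4 were lower at an unadjusted p under 0.05 in edgeR's test (14.5% of all tested genes were), and DESeq2 called 0. *Irf9*, which encodes the DNA-binding subunit of the type I interferon complex, had 47, 37 and 58 tags in the IL-11- and 17, 22 and 25 in the IL-11+ libraries, which did not overlap. *Irf9* had a log2 fold change of -0.98 (SE 0.26, BH-adjusted p = 0.0128, edgeR quasi-likelihood), which passed the adjusted p and was just short of a fold change of 2. The p was 0.051 without IL-11- replicate 3 and 0.0573 without IL-11+ replicate 1 (0.00415 to 0.0573 over the alternatives), and the fold change passed 2 without IL-11- replicate 2 (-1.12) or IL-11+ replicate 2 (-1.01) or 3 (-1.07). *Stat2*, the partner of IRF9 in that complex, had 45, 44 and 67 tags in the IL-11- and 26, 23 and 33 in the IL-11+ libraries. These groups were apart as well, with a log2 fold change of -0.76 (SE 0.24, BH-adjusted p = 0.0404, edgeR quasi-likelihood). Without any 1 of the IL-11- libraries or IL-11+ replicate 1 or 2, the adjusted p was 0.0569 to 0.166.

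*Irf1*, which interferon-γ induces and whose protein activates further interferon-stimulated genes, was the most abundant of these 4 genes by tags. It had 460, 563 and 377 tags in the IL-11- and 327, 257 and 274 in the IL-11+ libraries. After scaling, IL-11- replicate 3 overlapped with the IL-11+ libraries, and the log2 fold change was -0.56 (SE 0.20, BH-adjusted p = 0.0669, edgeR quasi-likelihood). With the replicate block the adjusted p was 0.00659 (0.00659 to 0.352 over the alternatives), and leaving out IL-11- replicate 3 or IL-11+ replicate 1 gave 0.00986 and 0.0409. *Irf7*, which drives the production of type I interferons, had 22, 29 and 31 tags in the IL-11- and 11, 21 and 8 in the IL-11+ libraries. Its log2 fold change of -0.86 (SE 0.35) did not pass (BH-adjusted p = 0.115, edgeR quasi-likelihood), and the gene was called without IL-11+ replicate 2 (-1.35). Without IL-11+ replicate 3 the log2 fold change was -0.57, and the gene was not called.

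The antiviral effectors were the largest group and had the lowest counts. Of its 11 genes, 5 were tested, with a median log2 fold change of -1.02. In edgeR's test 2 were called lower, *Mx2* and *Ifit2*, where 6.37% of all tested genes were, and 1 in DESeq2, *Mx2*. *Mx2*, a dynamin-like GTPase gene that GENCODE annotates as a polymorphic pseudogene, had 14, 19 and 23 tags in the IL-11- and 6, 3 and 6 in the IL-11+ libraries. Every IL-11+ library was below every IL-11- library, but the gene passed the filter only through the IL-11- libraries, which fixed this order in tags. *Mx2* had a log2 fold change of -1.71 (SE 0.42, BH-adjusted p = 0.00875, edgeR quasi-likelihood). It stayed called without any 1 of the IL-11+ libraries and no longer passed the filter without any 1 of the IL-11- libraries. On the genes of the 6-library filter, chosen after seeing the data, the adjusted p of edgeR's quasi-likelihood test was 0.0502 without IL-11+ replicate 2 (0.00497 to 0.0502 over the alternatives), and the call was lost.

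*Ifit2*, whose protein binds RNA and restrains translation, had 31, 15 and 42 tags in the IL-11- and 9, 10 and 15 in the IL-11+ libraries. IL-11- replicate 2 overlapped with IL-11+ replicate 3, and the log2 fold change was -1.20 (SE 0.37, BH-adjusted p = 0.0333, edgeR quasi-likelihood). The adjusted p was 0.104, 0.16, 0.107 and 0.111 without IL-11- replicate 1, IL-11- replicate 3, IL-11+ replicate 1 and IL-11+ replicate 2. *Ifit1* of the same family had 5, 16 and 37 tags in the IL-11- and 7, 10 and 8 in the IL-11+ libraries. Its IL-11- libraries spread over more than the difference between groups, and the log2 fold change of -1.02 (SE 0.51) did not pass (BH-adjusted p = 0.213, edgeR quasi-likelihood); it was called without IL-11- replicate 1 (-1.46). On the genes of the 6-library filter, an alternative chosen after seeing the data, it was -0.24 without IL-11- replicate 3. *Ifit2*, *Ifit3* and *Ifit1* lie close together on chromosome 19 (34550694 to 34650009).

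*Eif2ak2*, the kinase PKR that stops translation when it binds double-stranded RNA, had the most tags in this group. It had 37, 49 and 53 tags in the IL-11- and 42, 34 and 41 in the IL-11+ libraries, which overlapped throughout. *Eif2ak2* had a log2 fold change of -0.08 (SE 0.23, BH-adjusted p = 0.864, edgeR quasi-likelihood). *Oasl2*, of the oligoadenylate synthetase family, had 25, 32 and 32 tags against 14, 23 and 28 tags and a log2 fold change of -0.30 (SE 0.29; -0.48 to -0.09 when each library was left out), which did not pass either.

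The other 6 effector genes were below the filter. *Ifit3* had 5, 17 and 20 tags in the IL-11- and 1, 4 and 3 in the IL-11+ libraries. In a fit with no filter on low counts its log2 fold change was -2.13 (BH-adjusted p = 0.00408, edgeR quasi-likelihood), but 42.2% of its 5′ windows also occur in *Ifit3b*. *Rsad2*, which encodes viperin, had 13, 4 and 15 tags against 5, 4 and 3 tags. Close to it on chromosome 12, *Cmpk2* had 11, 10 and 9 tags against 7, 7 and 9 tags. *Mx1* (4, 3 and 6 tags against 3, 2 and 4 tags) and *Oas1a* (3, 3 and 8 tags against 2, 3 and 1 tags) stayed close to the floor in both groups, and 81.3% of the 5′ windows of *Oas1a* also occur in *Oas1g*. *Oas2* had 1, 1 and 7 tags in IL-11- libraries and 0 in all 3 IL-11+ libraries, where a count of 0 allows up to 2.86 to 3.18 normalized CPM. In the fit with no filter, *Ifit3* was the only 1 of the 9 members below the filter to pass; the next, *Oas2*, had a BH-adjusted p of 0.0914 (edgeR quasi-likelihood), and for the others no difference was detectable at this depth.

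Of the 4 genes of membrane restriction factors, 1 was called higher, where 3.44% of all tested genes were. The log2 fold change was positive for 3 and negative for 1, *Bst2*, with a median of 0.43, where 51.2% of all tested genes were negative. The IFITM proteins sit in cell membranes and hinder the fusion of enveloped viruses. *Ifitm1* had 1275, 1212 and 867 tags in the IL-11- and 2632, 2917 and 1938 in the IL-11+ libraries. The groups were far apart, at 1024 ± 273 and 2533 ± 599 normalized CPM (SD, n = 3), and replicate 3 was the lowest library of each. *Ifitm1* had a log2 fold change of 1.31 (SE 0.22, BH-adjusted p = 0.000349, edgeR quasi-likelihood), and it stayed called when any 1 of the 6 libraries was left out (1.08 to 1.49).

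*Ifitm3* had 1844, 1962 and 2197 tags in the IL-11- and 2337, 2521 and 2150 in the IL-11+ libraries, and *Ifitm2* had 1021, 930 and 878 tags against 1197, 1352 and 956 tags. For *Ifitm3* the scaled groups did not overlap, and for *Ifitm2* they did. Their log2 fold changes were 0.39 (SE 0.17) and 0.47 (SE 0.19), with BH-adjusted p of 0.137 and 0.108 in edgeR's quasi-likelihood test. With the replicate block both passed the adjusted p (0.0329 and 0.0104; the alternatives gave 0.0329 to 0.353 and 0.0104 to 0.36), and *Ifitm2* also passed it without IL-11+ replicate 3 (0.0264). *Ifitm2*, *Ifitm1* and *Ifitm3* lie close together on chromosome 7 (140954837 to 141010770), and 80.1% of the 5′ windows of *Ifitm2* also occur in other annotated genes, *Ifitm3* among them, so that its counts are less certain. *Bst2*, which encodes tetherin, a protein that holds budding viruses at the cell surface, had 103, 110 and 173 tags against 75, 82 and 109 tags and a log2 fold change of -0.37 (SE 0.19; -0.50 to -0.20 when each library was left out) that did not pass.

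The 3 IFITM genes held 78.4% of all tags of the 39 members, counted without regard to transcript length, and set the summed level. With them, the members summed to 5418.5, 5521 and 4875.8 normalized CPM in IL-11- and to 7467.9, 7883.9 and 5915.5 normalized CPM in IL-11+ libraries. Without them, the remaining 36 members summed to 1465.6, 1654.4 and 1639 normalized CPM in IL-11- and to 932.7, 989.9 and 1105.3 normalized CPM in IL-11+ libraries. The order of the groups in the sum was thus opposite with and without the IFITM genes, and the libraries of both groups were apart in both sums.

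**Figure D2:**
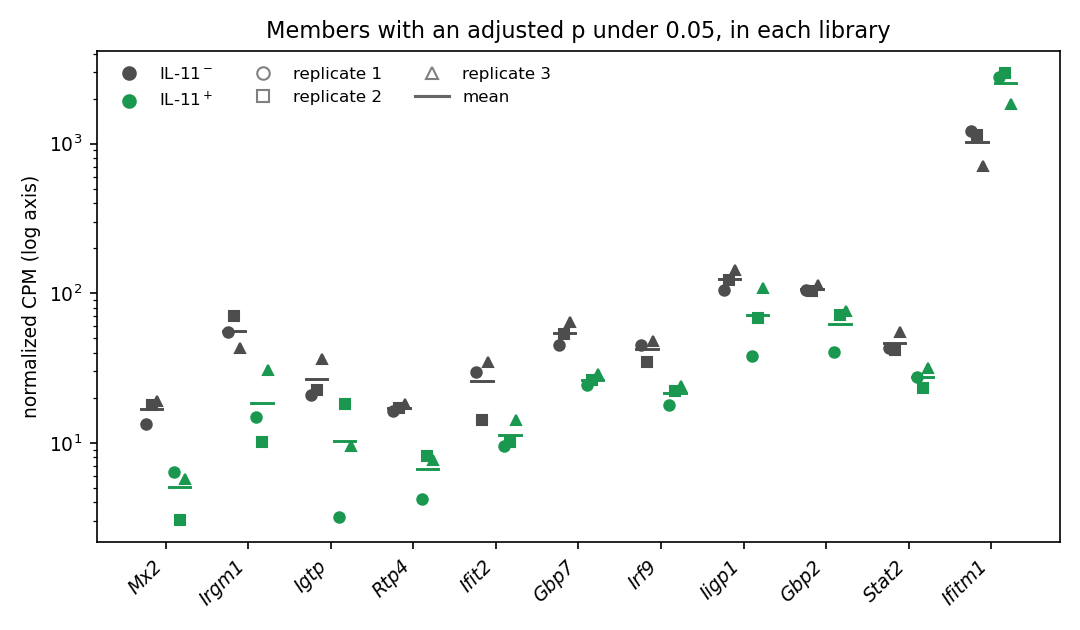
Normalized CPM (vertical log axis) of the 11 members with an adjusted p under 0.05 in each of the 6 libraries, with IL-11- libraries in grey, IL-11+ libraries in green, a symbol for each replicate number and a line at each mean. IL-11+ libraries are the lower ones for 10 of the 11 genes, with an overlap for *Ifit2* and *Iigp1*, and the higher ones for *Ifitm1*.

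Sensors of cytoplasmic RNA had few tags, with 2 of 3 tested and no call in edgeR's or DESeq2's test (1 lower at an unadjusted p under 0.05, against 14.5% of all tested genes). *Ifih1*, which encodes MDA5, had 28, 37 and 44 tags in the IL-11- and 16, 17 and 25 in the IL-11+ libraries. The groups did not overlap after scaling, but the log2 fold change of -0.75 (SE 0.28) missed the threshold (BH-adjusted p = 0.0842, edgeR quasi-likelihood). *Ddx58*, which encodes RIG-I, had 28, 30 and 33 tags against 25, 38 and 31 tags, which overlapped, and a log2 fold change of 0.21 (SE 0.26, BH-adjusted p = 0.673, edgeR quasi-likelihood), which was 0.04 without IL-11+ replicate 2 and 0.32 without IL-11+ replicate 1. *Dhx58*, a related helicase gene, was below the filter with 5, 12 and 7 tags against 2, 7 and 6 tags.

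Of the 6 genes for ISG15, ubiquitin and ADP-ribosylation enzymes, 5 were tested and all 5 were negative, with a median log2 fold change of -0.53 and no call in edgeR's or DESeq2's test; 2 were lower at an unadjusted p under 0.05, against 14.5% of all tested genes. *Isg15*, a ubiquitin-like protein that is joined to other proteins during the response, had 27, 65 and 77 tags in the IL-11- and 24, 27 and 38 in the IL-11+ libraries. IL-11- replicate 1 lay within the IL-11+ range, and the log2 fold change was -0.75 (SE 0.30, BH-adjusted p = 0.106, edgeR quasi-likelihood). The adjusted p was 0.0284 with the replicate block (0.00805 to 0.343 over the alternatives), and *Isg15* was called without IL-11- replicate 1 (-1.08). *Parp14*, an ADP-ribosyltransferase gene and the most abundant of the group by tags, had 69, 77 and 98 tags against 42, 54 and 72 tags, which overlapped. Its log2 fold change was -0.38 (SE 0.20, BH-adjusted p = 0.254, edgeR quasi-likelihood), and -0.23 without IL-11+ replicate 1.

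The remaining genes of that group gave no call. *Parp9* and *Dtx3l*, whose proteins form a complex, had log2 fold changes of -0.74 (SE 0.35; -0.47 without IL-11+ replicate 3) and -0.53 (SE 0.38; -1.02 without IL-11+ replicate 3 and -0.20 without IL-11+ replicate 1), and *Trim25*, a ubiquitin ligase that acts on RIG-I, had -0.11 (SE 0.32). *Usp18*, which removes ISG15 and dampens receptor signalling, was below the filter with 5, 1 and 7 tags against 2, 5 and 5 tags. *Parp14*, *Dtx3l* and *Parp9* lie close together on chromosome 16 (35832874 to 35972605).

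Among the 4 members outside these roles, *Rtp4*, known as a chaperone of membrane receptors, was called lower in edgeR's test but not in DESeq2. It had 17, 18 and 22 tags in the IL-11- and 4, 8 and 8 in the IL-11+ libraries, and no IL-11+ library reached an IL-11- library. This order in tags was fixed by the filter, which *Rtp4* passed only through the IL-11- libraries. The log2 fold change was -1.34 (SE 0.39, BH-adjusted p = 0.0251, edgeR quasi-likelihood). The adjusted p was 0.102 without IL-11+ replicate 1 (0.019 to 0.105 over the alternatives), and the gene no longer passed the filter without any 1 of the IL-11- libraries. On the genes of the 6-library filter, chosen after seeing the data, the adjusted p of edgeR's quasi-likelihood test was then 0.0579, 0.0677 and 0.0657 (IL-11- replicates 1, 2 and 3), so that the call was lost. Of its 5′ windows, 29.6% occur in another annotated gene. *Ifi35* had 31, 33 and 36 tags in the IL-11- and 16, 24 and 29 in the IL-11+ libraries. The groups were apart after scaling, and the log2 fold change of -0.38 (SE 0.27; -0.20 without IL-11+ replicate 1) did not pass (BH-adjusted p = 0.42, edgeR quasi-likelihood). *Xaf1*, a gene linked to apoptosis, had 27, 20 and 27 tags against 10, 26 and 11 tags and a log2 fold change of -0.49 (SE 0.36; -1.06 without IL-11+ replicate 2 and -0.25 without IL-11+ replicate 3), and *Ifi44* was below the filter with 2, 2 and 6 tags against 0, 1 and 3 tags.

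The promoters of the members were searched for the motifs of interferon-activated factors. The windows came from RefSeq (GRCm38.p6), reached from 250 bases before to 50 bases after each gene start and covered 30 of the 39 members with 34 promoters; *Dhx58*, *Mx1*, *Mx2*, *Oas2*, *Usp18*, *Iigp1*, *Parp9*, *Parp14* and *Rtp4* had no entry. The ISRE core was searched on both strands as GAAA, any 2 bases and GAAA (TTTC, any 2 bases and TTTC on the other strand) and the GAS as TTC, any 3 bases and GAA, which reads the same on both strands, and matches may overlap. The ISRE letters were found in 18 of the 34 member promoters (52.9%) and in 3.44% of all 32851 promoters, and the GAS letters in 10 of the 34 (29.4%) and in 8.3% of all promoters. In the promoters of other interferon-stimulated genes, listed further below, the shares were 40.4% (ISRE) and 11.2% (GAS). Because the members were listed as genes that interferons induce, their higher shares follow from that choice and do not bear on their lower counts. Of the called members with a window, *Gbp7* and *Igtp* held both motifs, *Irgm1* only the ISRE letters, *Ifit2* only the GAS letters and *Ifitm1* neither. Uncalled members held such letters as well. Among others, *Ifitm3* (log2 fold change 0.39) and *Eif2ak2* (-0.08) held both motifs, and *Ifitm2* (0.47) and *Ddx58* (0.21) only the ISRE letters. A match of letters is a description and not a binding site.

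The sequences below are those of the GTPase promoters, the role with the most calls in the main fit, and for comparison those of *Isg15*, *Ifit1*, *Stat2* and *Irf1*. They run 5′ to 3′ along the strand of the gene, with every matched base in capitals. The windows are chr11:48871425-48871460 (minus strand) for *Irgm1*, chr11:58199501-58199541 (plus) for *Igtp*, chr11:58214892-58214932 (plus) for *Irgm2*, chr3:142530220-142530267 and chr3:142530273-142530302 (plus) for the 2 distal GAS matches and the proximal ISRE match of *Gbp7*, chr3:142559989-142560024 (plus) for *Gbp3* and chr3:142620594-142620623 (plus) for *Gbp2*. Those of the other genes are chr4:156200865-156200906 (minus) for *Isg15*, chr19:34640775-34640823 (plus) for *Ifit1*, chr10:128270266-128270295 (plus) for *Stat2* and chr11:53769914-53769942 (plus) for *Irf1*.
Irgm1: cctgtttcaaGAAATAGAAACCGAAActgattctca
Igtp: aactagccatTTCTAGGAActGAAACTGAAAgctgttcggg
Irgm2: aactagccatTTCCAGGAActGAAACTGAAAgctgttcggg
Gbp7 distal: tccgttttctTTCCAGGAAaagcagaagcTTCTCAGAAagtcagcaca
Gbp7 proximal: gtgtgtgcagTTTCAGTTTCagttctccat
Gbp3: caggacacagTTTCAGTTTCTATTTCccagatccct
Gbp2: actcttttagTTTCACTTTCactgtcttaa
Isg15: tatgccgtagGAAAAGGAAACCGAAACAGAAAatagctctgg
Ifit1: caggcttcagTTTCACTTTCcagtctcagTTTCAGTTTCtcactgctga
Stat2: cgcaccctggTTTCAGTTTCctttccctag
Irf1: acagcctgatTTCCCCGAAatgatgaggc
*Igtp* and *Irgm2*, the overlapping pair, carried a GAS match followed by an ISRE match in nearly the same letters. The matches of *Isg15* (3) and of *Gbp3* and *Irgm1* (2 each) overlapped one another, and the 2 matches of *Ifit1* were apart. In *Irf1* the capitals are a GAS match only.

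Upstream of these genes, few interferon genes were counted. Of 21 listed interferon genes, the 4 that were counted (*Ifna6*, *Ifnk*, *Ifnz* and *Ifng*) summed to 5 tags over all 6 libraries, *Ifnz* leading with 2. The others were not analysed here. Of 18 genes for interferon receptors and signalling, 16 were tested, 1 was called lower (6.25%, against 6.37% of all tested genes) and none higher in edgeR's test, as in DESeq2 (3 lower and 1 higher at an unadjusted p under 0.05, against 14.5% and 12.2% of all tested genes), and their median log2 fold change was 0.15. *Socs1*, an inhibitor of JAK kinases that interferons induce, had 30, 31 and 35 tags in the IL-11- and 5, 11 and 11 in the IL-11+ libraries. All IL-11+ libraries were far below the IL-11- libraries, with a log2 fold change of -1.66 (SE 0.33, BH-adjusted p = 0.0017, edgeR quasi-likelihood), and the gene stayed called when any 1 of the 6 libraries was left out.

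*Socs3*, an inhibitor that STAT3 induces, had the most tags of this list. It had 1004, 917 and 673 tags in the IL-11- and 483, 361 and 467 in the IL-11+ libraries, which did not overlap. The log2 fold change of -0.84 (SE 0.20, BH-adjusted p = 0.00693, edgeR quasi-likelihood) passed the adjusted p only; the p was 0.0601 without IL-11+ replicate 2 (2.56e-05 to 0.0615 over the alternatives), and the fold change passed 2 without IL-11- replicate 3 (-1.06). Receptor genes and a kinase below them are given here although they were chosen after their values were seen. *Ifnar1*, *Ifnar2*, *Ifngr1* and *Ifngr2* had log2 fold changes of 0.38 (SE 0.17), -0.06 (SE 0.17), 0.23 (SE 0.18) and 0.15 (SE 0.27), and *Jak1* had 0.14 (SE 0.17), and none of these 5 genes passed. The signs of *Ifnar2* and *Ifngr2* depended on single libraries: their log2 fold changes were 0.01 and -0.08 without IL-11+ replicate 2 and 0.01 and -0.04 without IL-11- replicate 3. *Ifngr1* was at 0.08 without IL-11- replicate 3, and *Jak1* at 0.0039 without IL-11+ replicate 2.

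Of 17 genes for the induction of interferons, 15 were counted and 10 were tested, with 1 called higher and none lower in edgeR's test, as in DESeq2, where 3.44% and 6.37% of all tested genes were called in edgeR's test. At an unadjusted p under 0.05, 2 were lower and 1 higher, against 14.5% and 12.2% of all tested genes, and the median log2 fold change of the list was -0.22. *Tmem173*, which encodes STING, the adaptor of cytoplasmic DNA sensing, had 28, 32 and 30 tags in the IL-11- and 41, 62 and 66 in the IL-11+ libraries. The groups did not overlap, and the log2 fold change was 1.06 (SE 0.24, BH-adjusted p = 0.00436, edgeR quasi-likelihood), but it was 0.97 without IL-11- replicate 3 and 0.98 without IL-11+ replicate 2 or 3 or with scaling by library size only. *Tlr4*, the endotoxin receptor and the most abundant of the list by tags, had 134, 110 and 102 tags against 61, 59 and 99 tags. Its log2 fold change of -0.52 (SE 0.21) did not pass (BH-adjusted p = 0.115, edgeR quasi-likelihood). The adjusted p was 0.046 with the replicate block, 0.0489 without IL-11- replicate 3 and 0.0286 without IL-11+ replicate 3 (0.0286 to 0.392 over the alternatives). *Myd88*, a signalling adaptor of Toll-like receptors picked with its values known, had 127, 117 and 140 tags against 59, 55 and 64 tags, and the groups did not overlap. At -0.95 (SE 0.17, BH-adjusted p = 0.000744, edgeR quasi-likelihood) it passed the adjusted p only, and it was called with scaling by library size only (-1.03).

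A further 90 interferon-stimulated genes, which were not among the 39, were listed as well. They were chosen with earlier results of these data known and are not separate evidence for the members. Of these, 86 were counted and 54 tested, 7 were called lower against the 6.37% of all tested genes and none higher in edgeR's test, as in DESeq2 (19 lower and 1 higher at an unadjusted p under 0.05, against 14.5% and 12.2% of all tested genes). Their median log2 fold change was -0.51, and 42 of the 54 were negative. By the adjusted p alone 11 were lower, against 8.7% of all tested genes. With the replicate block 9 were called lower, and 16 were lower by the adjusted p alone, against 11.2% of all tested genes. The number called lower was 11 without IL-11+ replicate 3, and the median was -0.32 without IL-11+ replicate 1. All 54 had at least 1 library of each group at 10 tags.

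The calls of this longer list were led by genes of the HIN-200 family, whose proteins bind DNA; *Ifi203*, *Ifi204*, *Ifi205* and *Mndal* lie close together on chromosome 1 (173747293 to 174031810). *Ifi205* had 239, 219 and 294 tags in the IL-11- and 52, 77 and 66 in the IL-11+ libraries. *Ifi204* had 111, 131 and 183 tags against 19, 41 and 45 tags, and *Mnda* had 115, 127 and 136 tags against 48, 53 and 41 tags. In each of these 3 genes the groups were well apart, with log2 fold changes of -1.78 (SE 0.18), -1.85 (SE 0.24) and -1.25 (SE 0.19) and BH-adjusted p of 1.31e-06, 2.07e-05 and 0.00011 in edgeR's quasi-likelihood test. *Mndal* (62, 79 and 124 tags against 23, 33 and 28 tags) and *Ifi203* (69, 86 and 139 tags against 31, 39 and 42 tags) did not overlap either. Their log2 fold changes were -1.48 (SE 0.24) and -1.22 (SE 0.23), and that of *Ifi203* was -0.98 without IL-11- replicate 3. Counts within this family are uncertain, because 83.3% of the 5′ windows of *Ifi204*, 29.5% of those of *Ifi203* and 20.1% of those of *Mndal* also occur in other annotated genes, while none of those of *Ifi205* do; *Mnda* was not found in the annotation under this symbol.

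*Slfn5*, a member of the Schlafen family, had 64, 70 and 97 tags in the IL-11- and 15, 20 and 39 in the IL-11+ libraries, with a log2 fold change of -1.48 (SE 0.27, BH-adjusted p = 0.000741, edgeR quasi-likelihood). The groups did not overlap, and the gene stayed called when any 1 library was left out. *Sp100*, of nuclear bodies, was the seventh call (-1.04, SE 0.23) and was just below a fold change of 2 without IL-11+ replicate 1 (-0.92) or with no filter on low counts (-0.9975). *Serping1*, the complement C1 inhibitor and the gene of this list with the most tags, had 1927, 1805 and 1984 tags in the IL-11- and 1111, 1217 and 1182 in the IL-11+ libraries. These groups were apart, and the log2 fold change of -0.55 (SE 0.16, BH-adjusted p = 0.0265, edgeR quasi-likelihood) passed the adjusted p only, with 0.0517 to 0.103 when any library other than IL-11- replicate 3 was left out.

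Markers of other cells moved with the groups. The 6 smooth muscle genes, with *Myh11* as the most abundant, were all called lower in IL-11+ cells and summed to 1734.9, 2134.9 and 2659.6 normalized CPM in IL-11- and to 64.7, 106.6 and 226 normalized CPM in IL-11+ libraries. Of 6 pericyte genes 3 were lower and by the adjusted p alone 2 were higher, with sums of 2627.6, 2228.2 and 2023.2 against 1068.4, 894.5 and 793.4 normalized CPM; *Rgs5* led the list, and *Notch3* was at 0 in IL-11+ replicate 2. The 2 genes of the interstitial cells of Cajal, *Ano1* (the most abundant) and *Kit*, were called lower, at sums of 205.3, 119.7 and 217.6 against 1.06, 0 and 21 normalized CPM. *Cnn1* of smooth muscle, *Notch3* and *Kit* passed the filter only through the IL-11- libraries, so that they had to be lower in the others. Markers of smooth muscle, pericytes and interstitial cells were thus higher in sum in the IL-11- libraries, and their part in the differences of the interferon-stimulated genes was not tested.

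The genes of the surface proteins CD45, CD31 and EpCAM had few tags. *Ptprc*, which encodes CD45, had 1, 2 and 7 tags in the IL-11- and 0, 3 and 0 in the IL-11+ libraries, *Pecam1* had 0, 1 and 0 against 0, 0 and 0 tags, and *Epcam* had 1, 0 and 0 against 0, 0 and 1 tags. The 13 leukocyte genes counted summed to 49.6, 65 and 56.7 against 56.2, 29.4 and 37.2 normalized CPM. Their most abundant gene, *Cd74*, which interferon-γ also induces, was called lower in edgeR's test but not in DESeq2 (12, 24 and 15 against 2, 4 and 10 tags, log2 fold change -1.50, SE 0.50). This call was lost without IL-11- replicate 1 or 2 or IL-11+ replicate 1 or 2, where the adjusted p of edgeR's quasi-likelihood test was 0.0535, 0.237, 0.17 and 0.142 (0.0097 to 0.237 over the alternatives), and the log2 fold change was -2.26 without IL-11+ replicate 3. Of the leukocyte genes, 2 were tested, and both had a negative log2 fold change. Below the filter, *S100a8* (2, 4 and 2 against 13, 1 and 12 tags) and *S100a9* (1, 0 and 4 against 9, 4 and 0 tags) had higher means in the IL-11+ libraries. The 6 endothelial genes summed to 43, 30.1 and 55.8 against 24.4, 14.2 and 15.3 normalized CPM, and most of this was *Tek* (33, 24 and 42 against 17, 7 and 5 tags), which was called lower, while *Pecam1* and *Lyve1* were at 0 in the IL-11+ libraries. The 7 epithelial genes, led by *Krt8*, summed to at most 17.2 normalized CPM and the 4 mesothelial genes, led by *Wt1*, to at most 15.6 normalized CPM in any library.

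Fibroblast genes were abundant in both groups. The 9 genes summed to 22121.9, 22106.8 and 24635.3 normalized CPM in IL-11- and to 42226.5, 33957.3 and 30312.8 normalized CPM in IL-11+ libraries, and 2 of the 9 were called higher; by the adjusted p alone 4 were higher and 1, *Lum*, was lower. *Dcn*, the most abundant, had 14029, 11620 and 14508 tags in the IL-11- and 24693, 16830 and 15091 in the IL-11+ libraries. The summed level of this list thus differed between the groups as well, and its part in the lower counts of the interferon-stimulated genes was not tested.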

How the data were processed

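RNA of IL-11+ and IL-11- cells was read by 5′Tag-seq on an Ion Torrent sequencer (n = 3 libraries per group). Per the methods, the authors trimmed reads with Cutadapt (version 1.18 in the submitters' processing notes), mapped them in 1 orientation with Bowtie2 2.2.5 to mm10 RNA from RefSeq, and deposited the tag count of each gene symbol without normalization. They used R 3.5.1. The handling of tags that fit several genes and of molecular identifiers is not given in the sources used here.

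Genes that reached 10 tags in 3 or more of the 6 libraries were tested in R 4.3.3 with edgeR 4.0.16 (TMM, glmQLFit, glmQLFTest, BH adjustment over 9334 genes; SE from the log2 fold change and the F statistic). The thresholds, an adjusted p of 0.05 and a fold change of 2, are those of the methods. Library totals ranged from 1022851 to 1169817 tags, and genes below the filter were tested only in an alternative fit with no filter.

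Replicate numbers come from the sample titles, and the methods name 3 mice. Same-numbered libraries of both groups deviated together from their group means (r = 0.231, 0.209 and 0.27 across the 5064 genes whose mean reached 30 tags; genes are not independent replicates), so that the numbers were taken to pair the libraries, and a blocked fit used them as a factor. Libraries of 1 group differed by more than sampling noise (mean chi-square per gene 2.51 to 5.72) and were kept apart.

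The members and the gene lists were chosen with earlier results of these data known. No list was tested; lists are described by counts and medians. Named genes are the members with an adjusted p under 0.05, the most abundant member and the one with the smallest p of each role, the called genes (at most 6 by p) and the most abundant gene of each other list, the most abundant marker and markers at 0, and *Il11*. The other members are given by shorter values, and genes of other lists beyond this rule (*Ifnar1*, *Ifnar2*, *Ifngr1*, *Ifngr2*, *Jak1*, *Myd88*, *Sp100*, *Lum*, *Ptprc*, *Epcam*, *S100a8*, *S100a9*) were picked with their values known.

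Positions and transcripts are from GENCODE mouse release M21 (GRCm38), promoters from RefSeq (GRCm38.p6). The fit was tested on simulated counts, and the orientation of the promoter sequences was checked against annotated transcripts. The motif search itself was not tested. Alternatives were RLE factors, library size only, iterative TMM (the scheme of TCC), DESeq2 1.42.0, other filters, the block, no fold-change threshold, and each library left out in turn. Leaving out libraries on the genes of the 6-library filter was chosen after seeing the data.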

Additional observations from a re-analysis of the deposited data

How the results depend on the processing

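The call of *Ifitm1* was kept under each of the 19 alternatives run, and so was that of *Irgm1*. The count of 6 lower members was 3 with DESeq2, 3 with at least 10 tags in all 6 libraries (4 of the 6 were then not tested) and 10 without a fold-change threshold, and it ranged from 1 to 8 when each library was left out. On the genes of the 6-library filter, an alternative chosen after seeing the data, it was 2 without IL-11- replicate 3 and 2 without IL-11+ replicate 1. The members' median log2 fold change was -0.53 with at least 10 tags in all 6 libraries and ranged from -0.90 to -0.55 when each library was left out (-0.54 without IL-11- replicate 3 on the genes of the 6-library filter). For the further interferon-stimulated genes, 1 was called higher with no filter on low counts and 11 lower without a fold-change threshold; leaving out each library gave 6 to 11 lower genes (11 without IL-11+ replicate 3 on the genes of the 6-library filter) and medians of -0.61 to -0.32 (-0.33 without IL-11+ replicate 1 on those genes). Over all tested genes, 638 were higher without a fold-change threshold and 256 lower with at least 10 tags in all 6 libraries, and leaving out each library gave 341 to 579 lower (341 without IL-11- replicate 1 and 355 without IL-11- replicate 2, where fewer genes were tested, and 483 and 508 on the genes of the 6-library filter) and 251 to 306 higher genes. The log2 fold changes of 4 uncalled genes changed sign when a library was left out: *Trim25* (-0.37 to 0.12), *Eif2ak2* (-0.21 to 0.0085), *Ifnar2* (-0.13 to 0.0145) and *Ifngr2* (-0.0844 to 0.31). On the genes of the 6-library filter, *Trim25* was at 0.14 without IL-11- replicate 2 and 0.0704 without IL-11+ replicate 2, *Eif2ak2* at 5e-04 and 0.006, *Ifnar2* at 0.0331 without IL-11- replicate 3 and 0.0042 without IL-11+ replicate 2, and *Ifngr2* at -0.017 and -0.0868. The cause was not tested.

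With the replicate number as a block, 6 members were lower and 1 higher, 9 further genes were lower (*Gvin1* and *Tgtp2* were added), and by the adjusted p alone *Irf1*, *Isg15*, *Gbp3* and *Irgm2* were added as lower and *Ifitm2* and *Ifitm3* as higher members, *Tlr4* as lower, 5 further genes as lower and 1 as higher, and *Col1a2* of the fibroblast list as higher. The block changed no other call named here. Scaling by library size only put the median of all genes at -0.095 and called 7 members lower, *Irf9* added. Depth limits the set: 9 of 39 members stayed below 10 tags in most libraries, and the SE of the tested members reached 0.51.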

Other observations

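Replicate 3 was the highest library of both groups for 13 of the 30 tested members, which held for 14.3% of all tested genes, while replicate 1 was the highest of both for 1 member (14.1% of all tested genes) and replicate 2 for 3 members (10.6%). *Isg15*, *Irgm2* and *Iigp1* are among the 13. *Iigp1* had 110, 130 and 175 tags in the IL-11- and 36, 67 and 114 in the IL-11+ libraries, so that replicate 3 of the lower group exceeded replicate 1 of the higher group in tags. *Zbp1*, a sensor of left-handed nucleic acid, had 5, 6 and 28 tags against 3, 12 and 11 tags, so that replicate 3 was the highest only in the IL-11- group. *Oasl1* had 1, 1 and 12 tags against 1, 1 and 3 tags. Both genes were chosen after their values were seen.

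Hemoglobin transcripts also differed between libraries. The 6 erythroid genes, led by *Hbb-bs* (34, 0 and 141 tags against 5, 0 and 9 tags), summed to 90.7, 0 and 305.5 normalized CPM in IL-11- and to 19.1, 2.03 and 19.1 normalized CPM in IL-11+ libraries, and their relation to the members was not tested.

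Among chemokines that interferon-γ induces, *Cxcl10* had 150, 264 and 151 tags in the IL-11- and 64, 131 and 79 in the IL-11+ libraries. Its log2 fold change of -0.90 (SE 0.26, BH-adjusted p = 0.025, edgeR quasi-likelihood) passed the adjusted p only, and replicate 2 was the highest library of each group. The adjusted p was 0.223, 0.125 and 0.0858 without IL-11- replicate 2, IL-11+ replicate 1 and IL-11+ replicate 3 (2.56e-05 to 0.233 over the alternatives), and the fold change passed 2 without IL-11- replicate 1 (-1.03) or 3 (-1.11) or IL-11+ replicate 2 (-1.25) and was smaller without IL-11- replicate 2 (-0.55). *Cxcl9* had 10, 24 and 5 tags against 3, 13 and 6 tags, and *Cxcl11* had at most 1 tag in any library. These 3 genes were chosen after their values were seen.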
